A study of Homo sapiens with 24 samples.

Results

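The genes described here are the anti-apoptotic members of the BCL2 family: MCL1, BCL2, BCL2L1 (encoding Bcl-xL), BCL2L2 (Bcl-w) and BCL2A1 (Bfl-1). These 5 of 20162 protein-coding genes were followed through 8 deposited lists of differentially accessible regions. A region was assigned to a gene when it overlapped the gene body or lay within 10 kb of any annotated transcription start site (TSS) of that gene. By this rule 22 of the 26369 distinct listed regions belonged to the family: 17 to BCL2, 2 to MCL1, 2 to BCL2L1, 1 to BCL2L2 and 0 to BCL2A1. OCI-LY3 and VAL, human diffuse large B-cell lymphoma (DLBCL) cell lines, were exposed to 30 nM AZD4573, a selective CDK9 inhibitor (CDK9i), for 0, 3 or 8 h. Open chromatin was then read by ATAC-seq, in which a transposase cuts and tags the DNA that it can reach. Each of the 6 conditions had 4 libraries (24 in all), 2 made by a standard protocol from 50000 cells and 2 by Fast-ATAC, which the labels give as 5000 cells and the methods as 50000. The authors compared 3 h and 8 h with 0 h within each line, and their lists name the control DMSO, the drug's solvent.

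The lists hold the coordinates of regions that passed the authors' thresholds and no value for any library. Depth is therefore unknown, no error between replicates could be attached to a region, and neither the library protocols nor the identity of the lines by marker genes could be examined. A region absent from a list may not have changed, may have changed below the thresholds, or may not have been a peak. The lists held 3545 increased and 1786 decreased regions in VAL after 3 h, and 11121 and 9260 after 8 h. In OCI-LY3 they held 1852 and 1677 after 3 h, and 4367 and 3463 after 8 h. The times of a line share their 0 h libraries, whereas the lines share none.

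BCL2 family proteins decide whether the outer mitochondrial membrane stays intact. The anti-apoptotic members hold back the effectors BAX and BAK and bind the BH3-only proteins that would activate them. MCL1 has a short-lived mRNA and protein and so depends on ongoing transcription, which CDK9 supports by releasing paused RNA polymerase II. BCL2 is the target of venetoclax and is often highly expressed in DLBCL.

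Stretches of 300 bases from the regions on which the results turn are printed 5′ to 3′ on the strand of the gene, from the GRCh37 (hg19) sequence. Capitals mark a match, on either strand, to 1 of 6 short motifs: TGANTCA (AP-1), TGACGTCA (CRE), GGGANTTCC (NF-kB), GGGCGG (GC box), GAGGAAGT (PU.1/ETS) and GGAANNGAA (ETS-IRF). The last pair share the letters GGAA and can overlap. A CTCF consensus with at most 1 mismatch was searched as well. The MCL1 stretch lies directly upstream of the annotated gene, and the BCL2L1 stretch comes from its intronic region listed in OCI-LY3. The BCL2 stretches are from the region decreased in both lines and from 2 regions decreased in VAL that hold B-cell factor motifs.
MCL1 promoter region, chr1:150552215-150552514, minus strand: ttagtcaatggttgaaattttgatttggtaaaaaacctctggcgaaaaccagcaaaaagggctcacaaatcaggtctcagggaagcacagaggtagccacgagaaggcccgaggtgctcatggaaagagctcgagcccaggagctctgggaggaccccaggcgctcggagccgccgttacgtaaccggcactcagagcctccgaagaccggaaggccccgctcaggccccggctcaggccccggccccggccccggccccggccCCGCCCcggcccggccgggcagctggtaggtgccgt
BCL2L1 intron 2 region, OCI-LY3, chr20:30293636-30293935, minus strand: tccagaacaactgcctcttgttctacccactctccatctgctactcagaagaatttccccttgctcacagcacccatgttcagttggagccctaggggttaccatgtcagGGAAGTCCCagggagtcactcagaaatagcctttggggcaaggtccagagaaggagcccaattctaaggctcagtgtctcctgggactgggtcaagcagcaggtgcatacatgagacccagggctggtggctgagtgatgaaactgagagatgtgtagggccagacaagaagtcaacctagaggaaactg
BCL2 intron 2 region, both lines, chr18:60845316-60845615, minus strand: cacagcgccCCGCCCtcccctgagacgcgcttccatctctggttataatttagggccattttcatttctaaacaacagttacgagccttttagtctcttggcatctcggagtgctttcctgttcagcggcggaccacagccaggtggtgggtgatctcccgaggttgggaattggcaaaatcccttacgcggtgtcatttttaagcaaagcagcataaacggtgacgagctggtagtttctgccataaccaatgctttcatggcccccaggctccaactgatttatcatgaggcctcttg
BCL2 intron 2 region, VAL, chr18:60842716-60843015, minus strand: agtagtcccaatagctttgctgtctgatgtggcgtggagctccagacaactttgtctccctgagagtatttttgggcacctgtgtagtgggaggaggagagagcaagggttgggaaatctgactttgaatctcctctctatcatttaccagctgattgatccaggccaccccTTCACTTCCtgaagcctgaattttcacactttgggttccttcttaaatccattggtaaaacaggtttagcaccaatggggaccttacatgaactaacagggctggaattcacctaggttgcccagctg
BCL2 intron 2 region, VAL, mid-intron, chr18:60903821-60904120, minus strand: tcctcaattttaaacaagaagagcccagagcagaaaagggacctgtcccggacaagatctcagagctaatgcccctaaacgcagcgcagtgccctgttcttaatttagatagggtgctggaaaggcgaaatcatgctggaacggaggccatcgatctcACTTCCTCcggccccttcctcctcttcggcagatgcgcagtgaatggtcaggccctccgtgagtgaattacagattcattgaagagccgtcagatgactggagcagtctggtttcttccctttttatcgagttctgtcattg

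CDK9i was accompanied by opposite calls within the family. Regions at MCL1, BCL2L1 and BCL2L2 were listed only as increased, and regions at BCL2 only as decreased, in every list that held one. The chromosomes of these genes leaned the same way in those comparisons. Increased regions made up 59.1% to 64.2% on chromosome 1 (MCL1) and 65.6% to 93.2% on chromosome 20 (BCL2L1). On chromosome 14 (BCL2L2) they made up 69.8% in VAL after 8 h, whereas chromosome 18 (BCL2) leaned to decreases. In VAL, 2 of the 5 genes had an increased region after 3 h (40% of the family) against 17.7% of all protein-coding genes, and 3 of 5 (60%) after 8 h against 37.6%. In OCI-LY3, 2 of 5 had one after 3 h against 11.2% of genes, and 2 of 5 after 8 h against 19.7%. A decreased region was present at 1 of 5, always BCL2, in VAL after 3 h (background 5.12%), in VAL after 8 h (14.6%) and in OCI-LY3 after 8 h (8.81%). None of the 5 had a decreased region in OCI-LY3 after 3 h, where 5.97% of genes did. With 5 genes, each shift of 1 gene moves the family's share by 20 percentage points, so these shares are descriptions.

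**Figure D1:**
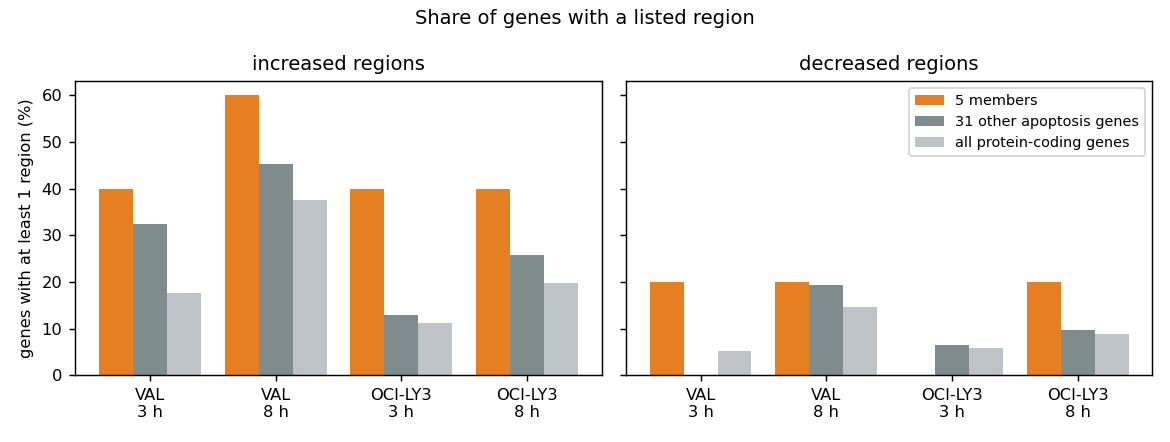
Bars give the percentage of genes with at least 1 increased (left) or decreased (right) region, for the 5 anti-apoptotic members, 31 other apoptosis genes and all 20162 protein-coding genes, in each line and time. The family's share of genes with an increased region was 40% or 60%, and its decreased share of 20% was BCL2 alone. A missing bar is 0.

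BCL2 carried most of the family's regions. The gene spans chr18:60790579-60987361 on the minus strand (197 kb, 3 exons in the canonical transcript). In VAL, 13 separate regions at BCL2 lost accessibility after 3 h and 15 after 8 h. In OCI-LY3, 0 did after 3 h and 1 after 8 h. No region at BCL2 was listed as increased in any comparison. All 17 distinct regions lay wholly inside intron 2, which at 189 kb makes up 96.2% of the gene body.

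**Figure D2:**
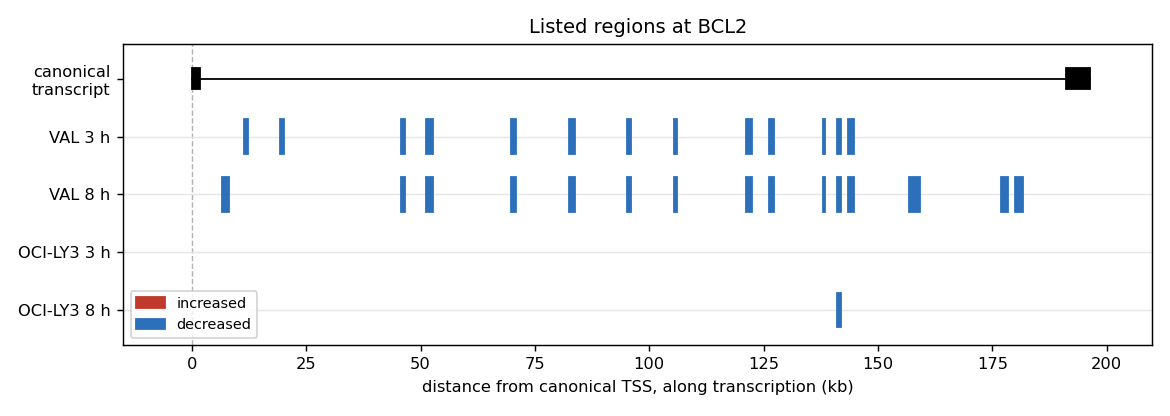
Each bar is a listed region at BCL2, drawn by its distance in kb from the canonical TSS along the direction of transcription, with the exons of the canonical transcript on top. Decreased regions spread over intron 2 in VAL (13 after 3 h, 15 after 8 h), OCI-LY3 had 1 after 8 h, and no bar reaches the TSS.

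The regions were spread along the intron rather than gathered in a single block. After 3 h in VAL they spanned 133 kb and covered 13128 bp, with gaps of 1.56 to 25.4 kb (median 10.1 kb). After 8 h they spanned 175 kb and covered 18925 bp, with gaps of 1.5 to 37.5 kb (median 11.1 kb). Widths ran from 465 to 2415 bp (median 1013 bp).

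The 3 h and 8 h lists of VAL held 11 of these regions in common, which is no independent repeat because both were set against the same 0 h libraries. Those 11 ran from chr18:60842252-60843479, 144 kb into the gene, to chr18:60940390-60941382, 46.1 kb from the TSS. The 3 h list alone held chr18:60966771-60967693 and chr18:60974844-60975653, 19.8 and 11.8 kb from the TSS. The 8 h list alone held chr18:60978844-60980488, 7.34 kb from the TSS. It also alone held 3 regions toward the 3′ end of the intron, chr18:60805223-60807093, chr18:60808592-60810190 and chr18:60827747-60830161, which lay 158 to 181 kb from the TSS. Of these, the first and the last each cover the start of a short alternative BCL2 transcript.

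No listed region touched the main BCL2 promoter. The closest edge of any region was 6.51 kb from the canonical TSS and 5.41 kb from the nearest of the 4 TSSs annotated at the 5′ end. Outside the gene, the next listed region in any comparison was 43.4 kb beyond the 3′ end (chr18:60745600-60747226, decreased in VAL after 8 h). On the 5′ side the next was 124 kb away, decreased in OCI-LY3 after 8 h and nearest to the TSS of VPS4B. The decreased calls in VAL were thus bounded by stretches with no listed region on both sides of the gene.

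In VAL after 3 h, BCL2 had more decreased regions than any other of the 20162 protein-coding genes (1 gene, 0.00496%, reached 13), and the next gene, the B-cell transcription factor BACH2, had 10. Among 3666 genes with a body of at least 100 kb, 14.2% had any decreased region after 3 h, with a median of 1 among those 520 genes and a 90th percentile of 2. BCL2 had 6.29 per 100 kb searched, and 0 of these long genes were denser. Shorter genes, in which 1 or 2 regions already give a high density, were not ranked by it.

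After 8 h, 6 genes (0.0298%) had at least the 15 regions of BCL2. Those were MARCHF1 with 20, PTPRD with 19, DLG2 with 17, PDE4D with 16, and AHR and BCL2 with 15 each. The others were searched over 439794 to 2308757 bp, against 206783 bp for BCL2. Decreased regions were present in 40.2% of the long genes after 8 h, with a median of 2 and a 90th percentile of 5 among the 1475 that had any. BCL2 had 7.25 per 100 kb, and again 0 long genes were denser. After 3 h the other 5 of these genes had 2 or 3 decreased regions each, against 13 for BCL2. In OCI-LY3 after 8 h they had 1 to 6, and BCL2 had 1.

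**Figure D3:**
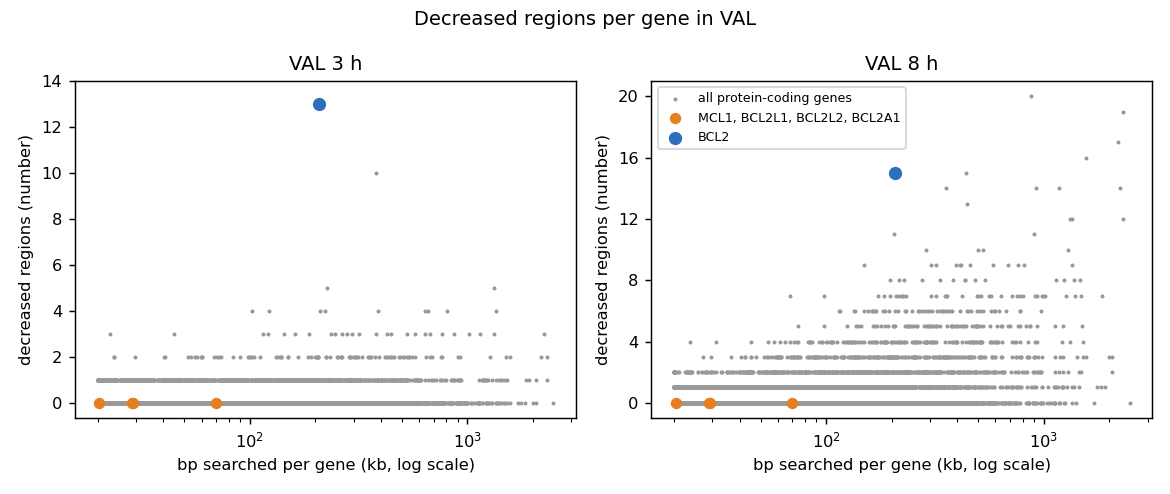
Each point is a protein-coding gene, placed by the length searched (kb, log scale) and its number of decreased regions in VAL after 3 h (left) and 8 h (right). BCL2 (blue) is highest after 3 h with 13 and is tied for the fifth place after 8 h with 15 in a shorter stretch than the genes above it, while MCL1, BCL2L1, BCL2L2 and BCL2A1 (orange) are all at 0.

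A count by position alone, without gene annotation, was added after the BCL2 counts had been seen. The most decreased regions held within any 200 kb were 13 in VAL after 3 h and 15 after 8 h, and BCL2 intron 2 held both. Over the whole lists, the median distance from a decreased region to the nearest other was 286 kb after 3 h and 37.5 kb after 8 h. In OCI-LY3 the fullest 200 kb held 7 decreased regions at each time, on other chromosomes. Chromosome 18 as a whole leaned to decreases in both lines. In VAL 62.9% of its listed regions were decreased after 3 h (33 increased, 56 decreased) and 70.1% after 8 h (102 and 239). In OCI-LY3 the figures were 78.4% (11 and 40) and 64.3% (46 and 83). BCL2 made up 23.2% of the decreased regions of chromosome 18 in VAL after 3 h and 6.28% after 8 h.

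The region decreased in both lines, chr18:60845045-60845885 (841 bp), lies 142 kb from the canonical TSS and had the highest GC content of the 17, 51.7%. Their median was 45%, from 38.4% up, beside a median of 40.7% for all decreased regions in VAL at each time. The printed stretch of this region opens with a GC-box match, the only one in the 17 central windows of 300 bp (5.88%). GC boxes were found in 6.44% of all decreased regions of VAL after 3 h and 7.81% after 8 h.

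ETS-IRF and PU.1/ETS matches at BCL2 were about as frequent as in the full lists. ETS-IRF, the composite element read by PU.1 or SpiB together with IRF4 or IRF8, was in 2 of 17 windows (11.8%), beside 11.1% and 12.6% of the decreased regions in VAL after 3 h and 8 h. One of them is the printed region 144 kb into the gene. The PU.1/ETS letters were in 1 of 17 (5.88%), the printed region 83 kb into the gene, beside 5.71% and 5.67%. AP-1, CRE, NF-kB and CTCF matched in 0 of 17 windows. AP-1 was present in 11.4% and CTCF in 8.85% of all decreased regions of VAL after 3 h, and in 10.6% and 8.15% after 8 h. CRE and NF-kB were rare in those lists too, with 0.056% and 1.01% after 3 h and 0.194% and 1.31% after 8 h. A match describes letters only and does not show that a factor was bound.

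MCL1 gained accessibility at its promoter in both lines and at both times. The gene lies at chr1:150533371-150552214 on the minus strand. The region chr1:150551149-150552771 (1623 bp, 61.1% GC) covers the canonical TSS, exon 1 and the starts of 7 of its 8 annotated transcripts, and was increased in all 4 comparisons. An annotated long noncoding RNA overlaps it, so accessibility there cannot be given to MCL1 alone. MCL1 was 1 of 592 genes (2.94%) with an increased region over an annotated TSS in every comparison, and the only family member among them. The printed stretch upstream of the gene is GC-rich (64.7%) and holds a GC-box match. GC boxes were in 45.9% and 42.6% of the increased regions of VAL after 3 h and 8 h, and in 40.2% and 29.9% of those of OCI-LY3.

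A second MCL1 region, chr1:150540016-150541199 (1184 bp, 46.7% GC), was increased in OCI-LY3 after 8 h and in no other list. It lies 11.5 kb from the canonical TSS, beyond the end of the canonical transcript but inside longer annotated MCL1 transcripts. It holds an ETS-IRF match, as did 6.92% of the increased regions of OCI-LY3 after 8 h. Outside the rule, 11.3 kb from the gene body and 25 kb from the nearest MCL1 TSS, a region at the ADAMTSL4 start was increased in VAL at both times and in OCI-LY3 after 3 h.

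BCL2L1 gained accessibility inside the gene and not at its start sites. The gene spans chr20:30252255-30311792 on the minus strand (59.5 kb). In both lines and at both times, a region of 1034 bp in intron 2 was increased. A neighbouring region 16.9 kb into the gene, chr20:30293426-30294145 (720 bp, 51.1% GC), was increased in OCI-LY3 after 3 h and 8 h and was absent from both VAL lists. Whether the lines differ at this region could not be tested. Both regions also overlap the antisense gene BCL2L1-AS1. None of the 11 annotated TSSs of BCL2L1 was covered by a listed region.

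The printed stretch of the OCI-LY3 region holds an NF-kB match, a motif found in 2.7% and 3.09% of the increased regions of OCI-LY3 after 3 h and 8 h. BCL2L1 is a known NF-kB target, but whether NF-kB acts at this region was not tested. The other BCL2L1 region, increased in all 4 comparisons, held no NF-kB match. With MCL1, BCL2L1 was among the 1186 genes (5.88%) that had some increased region in all 4 comparisons.

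**Figure D4:**
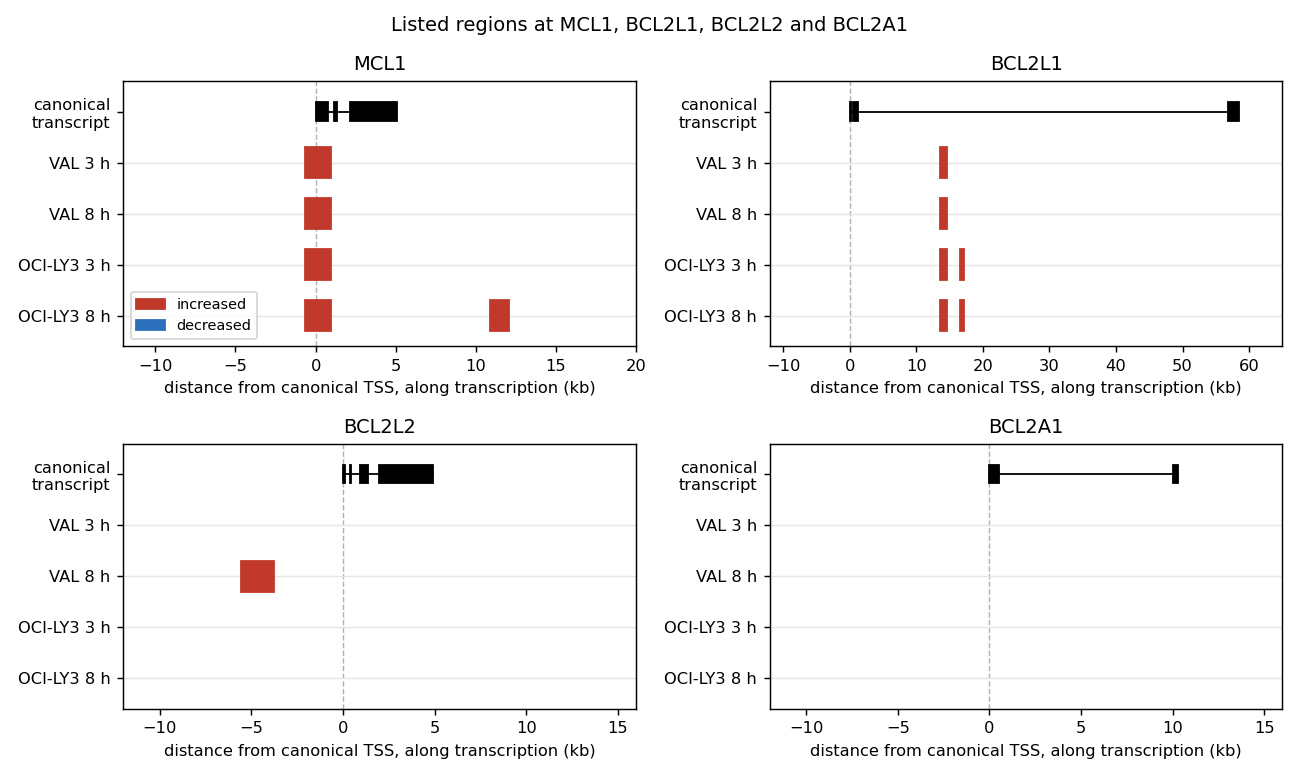
Each bar is a listed region at MCL1, BCL2L1, BCL2L2 or BCL2A1, drawn by its distance in kb from the canonical TSS along transcription, with the canonical exons on top. Every bar is an increase: over the TSS of MCL1 and within BCL2L1 in all 4 comparisons, upstream of BCL2L2 in VAL after 8 h, and at no position of BCL2A1.

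BCL2L2 had a single listed region, increased in VAL after 8 h. This region, chr14:23770483-23772298 (1816 bp, 70.5% GC), lies 4.65 kb upstream of the canonical TSS. It covers the start of 1 of the 10 annotated BCL2L2 transcripts and also overlaps PPP1R3E, which encodes a glycogen-targeting phosphatase subunit, so it cannot be given to BCL2L2 alone. Just outside the rule, 12.7 kb from the nearest BCL2L2 TSS, the region at the start of PABPN1 was increased in VAL at both times and in OCI-LY3 after 8 h.

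BCL2A1, an NF-kB-induced member of B cells, had no listed region in any comparison. The same was true of 41.8% of all protein-coding genes, and its body of 10.3 kb left a short stretch to search. The closest listed regions, 63.1 and 87.7 kb from the gene, were increases in VAL after 8 h at the starts of MTHFS and ZFAND6.

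The 2 lines had increased regions of the family in common. Nearly all of its decreased regions were listed in VAL alone, as were most decreased regions of VAL in the full lists. After 3 h, 2 of the 2 increased regions of the family in VAL and 2 of the 3 in OCI-LY3 were the same region. Over all genes the lines shared 729 increased regions after 3 h, 20.6% of those of VAL and 39.4% of those of OCI-LY3. After 8 h they shared 2 of 3 in VAL and 2 of 4 in OCI-LY3, beside 20.9% and 53.3% of the full lists. Of the 13 decreased regions of BCL2 in VAL after 3 h, 0 were in the OCI-LY3 list, where 15.5% of all decreased regions of VAL were. After 8 h, 1 of 15 was, beside 11.8%. Of 615 regions increased in all 4 comparisons 2 belonged to the family, and of 163 decreased in all 4 none did. Because the files used here give no values per library, a difference between the lines in the size of the BCL2 change was not tested.

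The wider pathway was read against the same shares of all protein-coding genes, which in each comparison had increased regions more often than decreased ones. Of 31 other genes of mitochondrial apoptosis, 10 (32.3%, background 17.7%) had an increased and 0 (background 5.12%) a decreased region in VAL after 3 h. After 8 h, 14 (45.2%, background 37.6%) had an increased and 6 (19.4%, background 14.6%) a decreased region. In OCI-LY3 after 3 h, 4 (12.9%, background 11.2%) had an increased and 2 (6.45%, background 5.97%) a decreased region. After 8 h these were 8 (25.8%, background 19.7%) and 3 (9.68%, background 8.81%). Apart from VAL after 3 h, the shares of the pathway lay near those of all genes.

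Among 11 BH3-only and effector genes, 5 (45.5%, background 17.7%) had an increased region in VAL after 3 h and 8 (72.7%, background 37.6%) after 8 h. In OCI-LY3, 3 (27.3%, background 11.2%) did after 3 h and 6 (54.5%, background 19.7%) after 8 h. These are shares of few genes, given as a description. The pore-forming effectors BAX and BAK1 had at least 1 in every comparison, and for BAX it covered a TSS each time. BBC3, which encodes the BH3-only protein PUMA, had 4 increased regions in VAL at each time, 0 in OCI-LY3 after 3 h and 2 after 8 h. BCL2L11 (BIM), a main ligand of the anti-apoptotic proteins, had 1 in VAL after 3 h and 2 after 8 h, and none in OCI-LY3. PMAIP1 (NOXA), which binds MCL1, lies on chromosome 18 like BCL2 and had 2 decreased regions in VAL after 8 h. It was the only gene of the 11 with a decreased region there (9.09%, background 14.6%). HRK, another BH3-only gene, had 1 decreased region in OCI-LY3 at each time. That was 9.09% of the 11 genes, beside 5.97% of all genes after 3 h and 8.81% after 8 h.

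Of 5 other BCL2-like genes, 3 (60%) had an increased region in VAL after 3 h (background 17.7%) and 3 after 8 h (background 37.6%), namely BCL2L12, BCL2L13 and BCL2L14. In OCI-LY3, BCL2L12 had one after 3 h (20% of the 5, background 11.2%), and BCL2L12 and BCL2L13 did after 8 h (40%, background 19.7%). None of the 5 had a decreased region in any comparison. The share of all genes with one was low as well, from 5.12% (VAL after 3 h) to 14.6% (VAL after 8 h). BCL2L10 and BCL2L15 had no listed region, as was true of 41.8% of all genes. At BCL2L12 an increased region covered a TSS in all 4 comparisons.

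The apoptosome and caspase genes, the other apoptosis inhibitors and the genes of MCL1 turnover had regions called in both directions. Among 7 apoptosome and caspase genes, CASP9 and DIABLO had increased regions in VAL after 8 h (28.6%, background 37.6%). CYCS (cytochrome c) had a decreased one in VAL after 8 h, where 14.6% of all genes did. CYCS also had 1 decreased region in OCI-LY3 at each time, and APAF1 had 2 after 8 h. Genes with a decreased region in OCI-LY3 were thus 14.3% of the 7 after 3 h (background 5.97%) and 28.6% after 8 h (background 8.81%). Of 5 other apoptosis inhibitors (XIAP, BIRC2, BIRC3, BIRC5 and CFLAR, which blocks caspase-8 at death receptors), BIRC5 (survivin) alone had an increased region in VAL, 1 at each time (20% of the 5, beside 17.7% of all genes after 3 h and 37.6% after 8 h). XIAP and BIRC3 had 1 decreased region each in VAL after 8 h (40% of the 5, beside 14.6%). FBXW7, a ubiquitin ligase subunit for MCL1, had 1 increased region in VAL after 3 h (33.3% of 3 turnover genes, background 17.7%). After 8 h in VAL it had 1 decreased region (33.3%, background 14.6%). The deubiquitinase USP9X and the ligase HUWE1, which act on MCL1 stability, had none.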

How the data were processed

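Per the study's methods, the authors aligned ATAC-seq reads to hg19 with bowtie2 (--very-sensitive), removed mitochondrial, multiply aligned and duplicate reads and called peaks in each sample with MACS2 (q 0.05). The authors merged the peaks and counted reads in them with bedtools, and compared times with DESeq2. The methods give thresholds of 1.5-fold and adjusted p 0.01, a figure legend 0.05. Versions, transposase offset and model terms are not given in the sources used here. The 8 deposited lists hold region coordinates only (0 columns of per-sample values, no fold changes or p-values).

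Regions were assigned to genes of GENCODE v44 lifted to GRCh37, whose chromosome lengths contain them, with Python 3.11.15, numpy 2.4.6, pandas 2.3.3 and pysam 0.24.0. Coordinates are 1-based. Motifs were searched in the central 300 bp on both strands. A gene of the pathway list and a stretch of sequence are not reported here. Printed stretches were moved off annotated untranslated bases. The named genes were the 5 members, the 31 pathway genes, neighbours of the regions and genes with at least as many decreased regions as BCL2. BACH2, second at 3 h, was named after its value was seen. The members and lists were chosen with earlier results of these data known. No test was run, since the lists hold no replicate values. In the labels nothing says whether libraries came from separate cultures. Alternatives were 5 and 25 kb, basic transcripts, nearest TSS and merging regions within 1 kb. The assignment was tested on simulated regions.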

Additional observations from a re-analysis of the deposited data

How the results depend on the processing

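Of 40 alternative counts, 38 stayed within 1.5 times the reported count. The other 2 came from a limit of 25 kb, which gave 4 increased regions at the family in VAL at 3 h (2 reported) and 5 at 8 h (3 reported), since it takes in the regions at ADAMTSL4 and PABPN1. The BCL2 counts of 13 and 15 held at 5 kb, at 25 kb and with basic transcripts. With these settings BCL2 was the only gene to reach 13 at 3 h, and 6, 7 and 6 genes reached 15 at 8 h. No library could be left out, and no paired analysis was possible because the deposited lists give coordinates and no library values. Depth, effect size and replicate spread are therefore unknown for each region.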
